A study of Mus musculus with 4 samples.

Results

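The genes described here are 8 genes of metal handling in splenic CD11b+ cells, taken from 27998 genes in the deposited count table: the metallothioneins Mt1 and Mt2, the ferritin chains Fth1 and Ftl1, heme oxygenase Hmox1, and the transporters or receptors Slc40a1, Tfrc and Slc11a1. They were chosen by name, and each was followed over the deposited cell type labels, the clusters and the CD115hi subsets, with the cells labelled Macrophage as the iron-recycling reference. All 8 had at least 1 unique molecular identifier (UMI, the tag that marks 1 captured transcript), as did 16898 genes of the table.

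Splenocytes of C57BL/6 mice aged 8 to 12 weeks were sorted for CD11b and profiled by CITE-seq, which reads RNA and antibody tags from the same droplets. The steady-state library came from mice without GM-CSF and the GM-CSF-treated library from mice given 3 once-daily injections of 10 µg, with spleens taken 24 hours after the last injection. No gene was deleted or introduced in either group, and the number of mice behind a library was not given in the sources used here. There was 1 library per condition, so that library and treatment cannot be told apart, no difference below was tested, and every interval covers counting error only.

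The steady-state library held 4827 cells with a median of 3371 UMIs, and the GM-CSF-treated library held 6804 cells with a median of 4916. The study set 6075 cells apart as the Focus bundle of monocytes, macrophage-like cells and DCs, 2135 in steady state and 3940 after GM-CSF, and split them into 17 clusters, of which 12 held at least 20 cells in both libraries. The 12 deposited cell types were used as labelled. Levels are given as CPM, the summed UMIs of a gene per 1000000 UMIs of the cells in the group, with the exact Poisson 95% interval, and fewer expressing cells and less RNA per cell are not separated by a summed level. A gene was counted as 2-fold different where it had at least 50 UMIs over both groups and the ratio of CPM was at least 2 with 0.5 counts added to each sum.

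Iron enters most cells through the transferrin receptor, is stored in ferritin shells of heavy and light chains, and leaves through ferroportin. In the spleen, red pulp macrophages engulf aged red cells, open the heme ring with heme oxygenase and return the iron to the blood through ferroportin. Metallothioneins are small cysteine-rich proteins that bind zinc and copper, and Slc11a1 carries iron and manganese out of the phagosomes of phagocytes. Several of the transcripts carry an iron-responsive element, a stem-loop bound by iron regulatory proteins, which in a 5′ UTR holds back translation and in a 3′ UTR protects the transcript from decay when iron is low.

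The iron-responsive elements found in 4 of the 8 genes are shown because they are the regulatory feature that the iron uptake, storage and export genes share. They were found in the GENCODE M21 transcripts by their loop of CAGTG followed by any base but G, a stem of 5 base pairs with G-U pairs allowed, and an unpaired C before the stem, and were identical in the GRCm38 genome. The loop is in capitals. Fth1 (chr19:9980598-9985098, plus strand) held its element in the 5′ UTR at chr19:9982733-9982760, Ftl1 (chr7:45457944-45459884, minus strand) in the 5′ UTR at chr7:45459779-45459806, and Slc40a1 (chr1:45908068-45926523, minus strand) in the 5′ UTR at chr1:45925465-45925492. Tfrc (chr16:32608920-32632794, plus strand) held 4 elements in the 3′ UTR, in exon 19, at chr16:32631220-32631247, chr16:32631599-32631626, chr16:32631664-32631691 and chr16:32631711-32631738, printed in that order.
Fth1: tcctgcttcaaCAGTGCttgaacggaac
Ftl1: tcttgcttcaaCAGTGTttgaacggaac
Slc40a1: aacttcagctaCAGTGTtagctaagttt
Tfrc: attatcggaagCAGTGCcttccataatt
Tfrc: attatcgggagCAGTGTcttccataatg
Tfrc: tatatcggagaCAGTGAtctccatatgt
Tfrc: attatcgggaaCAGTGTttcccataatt

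The same pattern was found in the 5′ UTR of 22 of 20899 genes (0.105%) and in the 3′ UTR of 99 of 21685 genes (0.457%). It was not found in the annotated UTRs of Hmox1 (chr8:75093621-75100589, plus strand), Mt1 (chr8:94179082-94180327, plus strand), Mt2 (chr8:94172664-94173568, plus strand) or Slc11a1 (chr1:74375195-74386062, plus strand). Mt2 and Mt1 lie side by side, with 5513 bases between them. The Ftl1-like gene Ftl1-ps1, listed in the count table as Gm10116, carried a 5′ UTR element identical to that of Ftl1, so reads of the light chain and of this copy may be split between both entries.

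Several labels were at odds with marker genes. The steady-state cells labelled MoMacDC_c4 (43 cells) carried NK cell markers at 11806 CPM against 1.57 CPM in the 595 GM-CSF-treated cells of the same label, so that a ratio within MoMacDC_c4 compares different cells. Cells labelled cDC2-A carried NK cell markers at 18730 CPM in steady state and 19624 CPM after GM-CSF. In the Focus bundle, clusters 11 and 14 of steady state and clusters 11 and 15 after GM-CSF carried neutrophil markers at 20620 to 149097 CPM. The labels Granulocyte and Neutrophil both held neutrophil markers, but Camp, an antimicrobial peptide of granules, was at 38292 CPM in steady-state Neutrophil cells and 9.80 CPM in Granulocyte cells, whereas the chemokine receptor Cxcr2 was at 335 and 2389 CPM. Granule protein transcripts thus marked the Neutrophil label and Cxcr2 the Granulocyte label. MoMacDC_c1 came mostly from clusters 5, 2 and 6 in steady state and from clusters 1 and 2 after GM-CSF, and the leading clusters of MoMacDC_c2 were cluster 3 in steady state and clusters 0 and 3 after GM-CSF, so ratios within either label also span different clusters.

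The cells labelled Macrophage were 25 in steady state and 22 after GM-CSF. They carried all 8 macrophage markers, including the complement genes C1qa, C1qb and C1qc, at 16762 and 15703 CPM, and no other label exceeded 264 CPM. Erythroid markers reached 2314 CPM in the steady-state macrophages, with all 8 genes detected in 223 UMIs, and 21.2 CPM, a single UMI of Car2, in the GM-CSF-treated ones. The part of these red cell transcripts in the macrophage levels was not tested.

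Hmox1 and Slc40a1 stood furthest above the other labels in the macrophages. Hmox1, which breaks heme into biliverdin, carbon monoxide and iron, stood at 7130 CPM (6607 to 7684) in steady-state macrophages and at 7831 CPM (7053 to 8671) after GM-CSF. The other 11 labels ranged from 1.38 to 130 CPM in steady state and from 0 to 71.7 CPM after GM-CSF. Slc40a1, the ferroportin gene and the only known cellular iron exporter, stood at 4951 CPM (4516 to 5415) and 4719 CPM (4120 to 5381) in macrophages, with the next label, Granulocyte, at 724 and 625 CPM. The macrophage intervals lay apart from every other label for both genes in both libraries. At least 1 Hmox1 UMI was found in 96.0% of steady-state and 100% of GM-CSF-treated macrophages, at median depths of 2896 and 1745 UMIs, and T cells, at 3747 and 2357 UMIs, had one in 0.575% and 2.56% of cells.

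**Figure D1:**
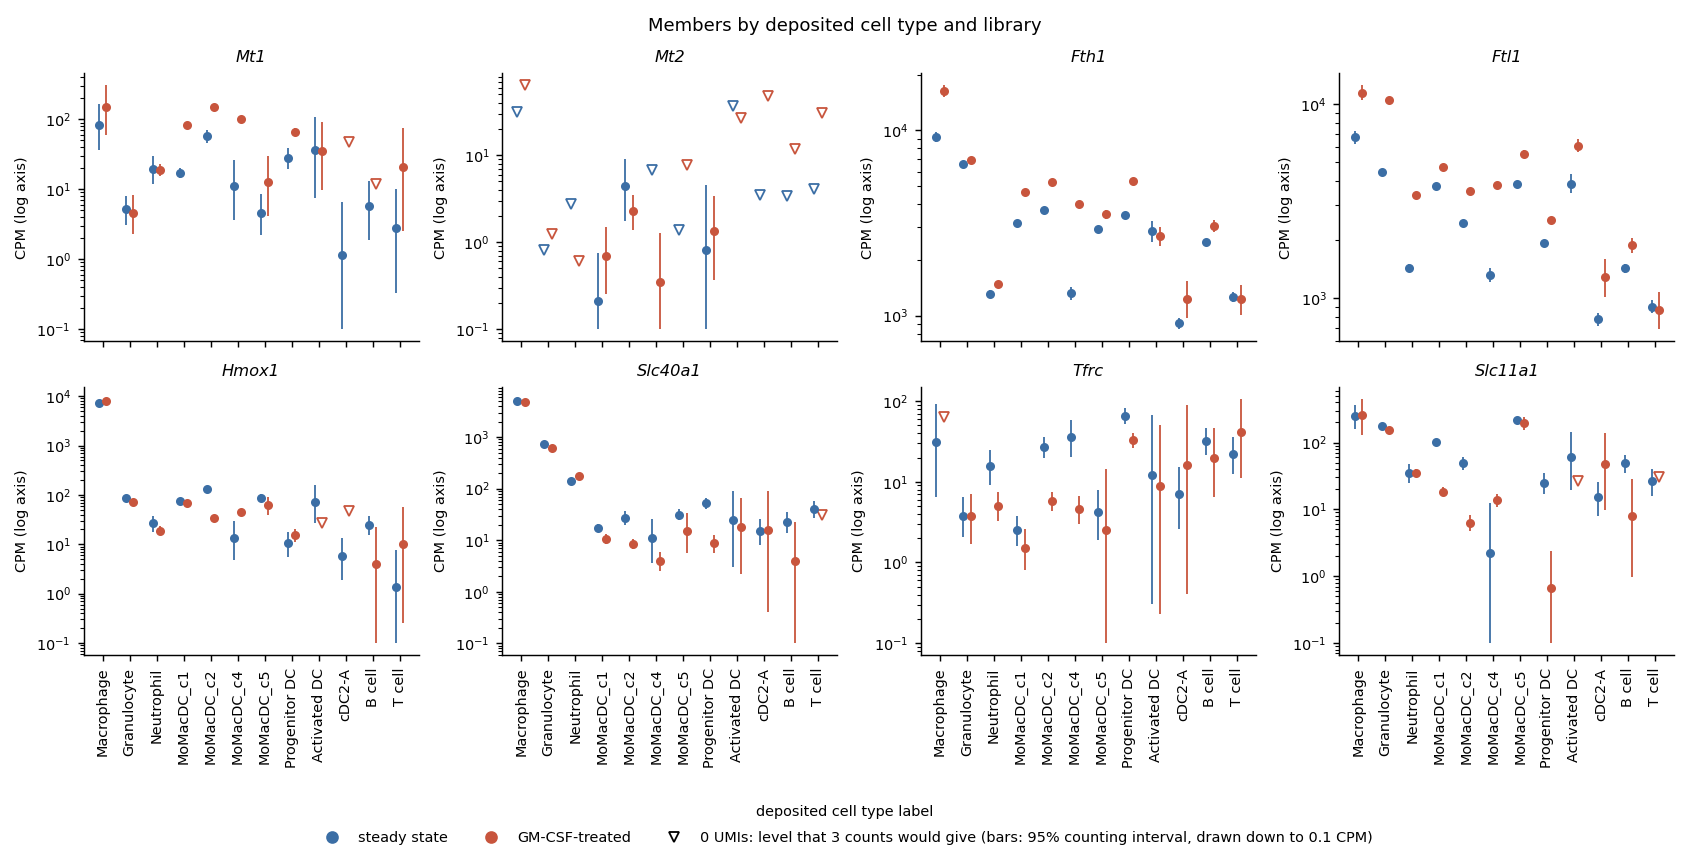
Level of each of the 8 genes (CPM, log axis) by deposited cell type label, with 1 colour per library. Points are summed levels of 1 library with 95% counting intervals, and open triangles stand for groups with 0 UMIs, drawn at the level 3 counts would give. Hmox1 and Slc40a1 in Macrophage cells sit above 4000 CPM in both libraries, while Mt1 is highest in MoMacDC_c2 and Macrophage cells.

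Against all other cells of the same library, Hmox1 was 104-fold (95.2 to 114) and 182-fold (162 to 204) higher in macrophages, and Slc40a1 34.2-fold (31.0 to 37.7) and 63.1-fold (54.8 to 72.4) higher. The ferritin chains were higher by less, Fth1 by 2.66-fold (2.48 to 2.84) and 3.68-fold (3.42 to 3.95) and Ftl1 by 2.09-fold (1.94 to 2.26) and 2.69-fold (2.47 to 2.93). All 7 members with at least 50 UMIs were at least 2-fold higher in the steady-state macrophages, where 25.2% of 10291 genes were, and none was lower against 14.7%, although Mt1 rested on 8 UMIs and Tfrc on 3 there. After GM-CSF 5 of 7 were higher, where 38.8% of 10717 genes were, and none was lower against 12.7%. The remaining members were Mt1, at 1.72-fold (0.690 to 3.54), and Tfrc, listed at 0 in the macrophages. The median log2 ratio of the members was 1.66 in steady state and 1.88 after GM-CSF, and that of all genes 0.27 and 0.58.

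Taken label by label, macrophages were at least 2-fold higher in 93 of 111 ratios of a member with at least 50 UMIs, where 22.0% of the ratios of all genes were. This held in 22 of 22 ratios for Hmox1, 22 of 22 for Slc40a1, 21 of 22 for Fth1, 16 of 22 for Ftl1 and 9 of 13 for Slc11a1. Several of these pairs reached 50 UMIs only through the macrophages. In steady state, Hmox1 had 687 UMIs against 1 in T cells, and Slc40a1 477 against 2 in Activated DC. For such pairs a higher ratio follows from the filter. The 1 ratio at least 2-fold lower was Tfrc against Progenitor DC after GM-CSF, with 0 against 97 UMIs, where 20.7% of all ratios were lower. Its interval (0 to 2.45) included 1, so that this call is set by the 0.5 counts added. In these macrophages 0 UMIs allow up to 63.5 CPM, above the 32.5 CPM of Progenitor DC. The label nearest to macrophages in ferritin was Granulocyte, whose Ftl1 after GM-CSF, 10513 CPM, was close to the 11471 CPM of macrophages, a ratio of 1.09 (1.0 to 1.19).

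Within macrophages, the recycling genes differed little between libraries and the ferritin chains differed more. Hmox1 had a GM-CSF to steady-state ratio of 1.10 (0.965 to 1.25) and Slc40a1 of 0.953 (0.809 to 1.12). Fth1 was 9227 CPM in steady state and 16296 CPM after GM-CSF, a ratio of 1.77 (1.60 to 1.95), and Ftl1 6756 and 11471 CPM, a ratio of 1.70 (1.51 to 1.91). None of the 4 members with at least 50 UMIs passed 2-fold, where 4.68% of 427 genes were higher and 9.13% were lower. With macrophages defined instead by the cutoffs of the study on Adgre1 and C1qa, 16 and 13 cells, the levels were 9886 and 13042 CPM for Fth1 and 7691 and 10381 CPM for Ftl1. Mt1 rested on 8 and 7 UMIs in macrophages, Tfrc on 3 and 0, and Mt2 on none in either library, which allows up to 31.1 and 63.5 CPM.

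Over the 12 labels, 52 GM-CSF to steady-state ratios had at least 50 UMIs, of which 10 were at least 2-fold higher (5.79% of the ratios of all genes) and 7 at least 2-fold lower (7.80%). Without MoMacDC_c4, 5 of 47 were higher, where 4.76% of all were, and 7 were lower against 7.18%. These 5 were Mt1 in MoMacDC_c1, MoMacDC_c2 and Progenitor DC, and Ftl1 in Granulocyte and Neutrophil cells. The 7 lower ratios were those of Slc11a1, Slc40a1 and Tfrc in MoMacDC_c2, Hmox1 in MoMacDC_c2, Slc11a1 in MoMacDC_c1, and Slc40a1 and Tfrc in Progenitor DC.

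**Figure D2:**
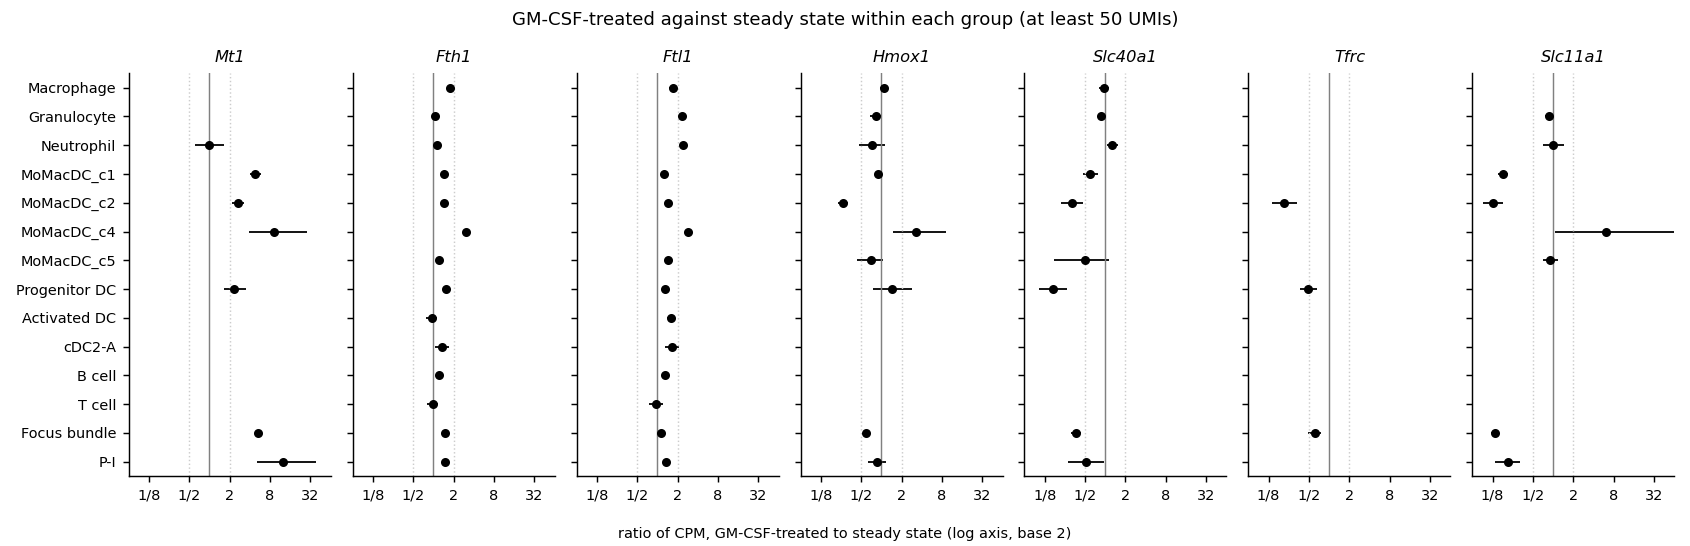
Ratio of CPM in the GM-CSF-treated to the steady-state library (log axis) for 7 of the genes within each deposited cell type, the whole Focus bundle and P-I, where both groups together held at least 50 UMIs and an interval could be drawn. Points are ratios with 95% counting intervals, the solid line is a ratio of 1 and the dotted lines are 2-fold. Mt1 lies right of 2 in the Focus bundle at 5.29 and Slc11a1 lies left of 0.5 at 0.134.

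The metallothionein Mt1 was higher after GM-CSF in MoMacDC_c1, MoMacDC_c2 and Progenitor DC, while its intervals in granulocytes and neutrophils included a ratio of 1. Over the Focus bundle it went from 20.3 CPM (303 UMIs) in steady state to 107 CPM (2905 UMIs), a ratio of 5.29 (4.70 to 5.98). A Mt1 UMI was found in 7.45% of the steady-state and 42.2% of the GM-CSF-treated bundle cells, and in 1.23% and 9.02% once each cell was thinned to 1000 UMIs. B cells, taken as background, had one in 2.04% and 0% of cells at median depths of 2976.5 and 2741 UMIs, against 6894 and 6654 UMIs in the bundle. Across the bundle as a whole, Mt1 was the 1 member of 7 that was at least 2-fold higher, where 8.66% of 10860 genes were.

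By label, Mt1 was 17 CPM in steady state and 82.5 CPM after GM-CSF in MoMacDC_c1, a ratio of 4.85 (4.08 to 5.79). In MoMacDC_c2 it was 57 and 151 CPM, a ratio of 2.65 (2.15 to 3.32), but 51 of the 91 steady-state UMIs lay in 1 cell, without which the steady-state level was 25.2 CPM. In Progenitor DC it was 28.3 and 66.1 CPM, a ratio of 2.33 (1.62 to 3.45). The neutrophils held 19.2 and 19.0 CPM, a ratio of 0.990 (0.612 to 1.67), but 11 of the 21 steady-state UMIs lay in 1 cell, and without the highest cell of each library the levels were 9.46 and 16.9 CPM. The granulocytes held 5.17 and 4.56 CPM, on 19 and 11 UMIs. MoMacDC_c5, the label with the highest Slc11a1 outside macrophages, held little, at 4.65 and 12.8 CPM on 10 and 5 UMIs. After GM-CSF the order of labels led with MoMacDC_c2, Macrophage and MoMacDC_c4, each overlapping the next. MoMacDC_c1 lay apart below MoMacDC_c4 and Progenitor DC apart below MoMacDC_c1, though the wide macrophage interval, on 7 UMIs, overlapped both, and in steady state every label overlapped the next in order.

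The Mt1 difference recurred across clusters. Of the 12 clusters with at least 20 cells in both libraries, 10 had 50 Mt1 UMIs, and the interval of the ratio lay above 1 in these 10, several of which reached 50 UMIs through the GM-CSF-treated library. The other 2, clusters 4 and 10, had ratios of 2.95 (0.881 to 8.95) and 3.38 (0.564 to 137). The lowest of these ratios was 1.98 (1.24 to 3.15), in cluster 6, and the highest with UMIs in both libraries was 10.5 (5.40 to 22.4), in cluster 11. Clusters 8 and 12 had 0 Mt1 UMIs in steady state, in 28 and 20 cells, and 103 and 52.1 CPM after GM-CSF, at least 11.2-fold and 4.28-fold higher if 3 counts are allowed to each steady-state cluster. All 28 steady-state cells of cluster 8 were MoMacDC_c4 cells, which carry NK cell markers, so that its ratios compare different cells. Cluster 0, which had under 20 cells in steady state, stood highest after GM-CSF at 172 CPM (160 to 184), with cluster 3 next at 147 CPM (134 to 160). Over all members, 15 of 54 cluster ratios were at least 2-fold higher and 7 lower, where 5.72% and 7.42% of the ratios of all genes were. Mt1 alone gave 9 of the 15 and Slc11a1 5 of the 7, so the counts mostly repeat single genes over clusters of the same libraries. In cluster 8 lay 4 of the 15, those of Mt1, Fth1, Ftl1 and Hmox1. Clusters 1, 3, 7, 8, 10 and 12 were mostly GM-CSF-treated cells and clusters 4, 5 and 6 mostly steady-state cells, so that such a cluster may stand for its library.

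**Figure D3:**
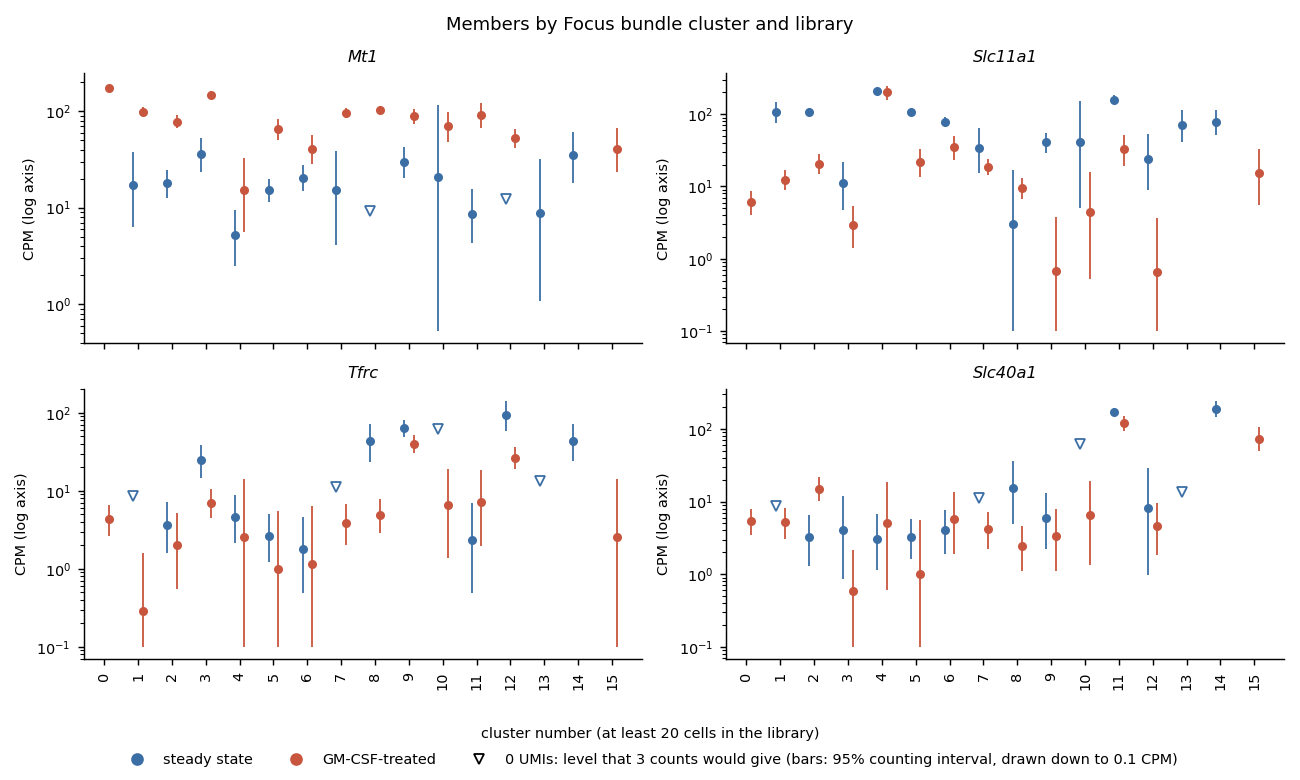
Level (CPM, log axis) of Mt1, Slc11a1, Tfrc and Slc40a1 by Focus bundle cluster in each library, for clusters with at least 20 cells in that library. Points are summed levels with 95% counting intervals, and open triangles mark 0 UMIs at the level 3 counts would give. The Mt1 points are higher after GM-CSF in each cluster drawn for both libraries, Slc11a1 is near 200 CPM in both libraries only in cluster 4, and Slc40a1 is above 70 CPM only in clusters 11, 14 and 15.

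Mt2, the neighbour of Mt1 and the other widely expressed metallothionein, was barely captured, with 43 UMIs in 37 of 11631 cells. Of these, 10 UMIs were in steady state and 33 after GM-CSF, and 28 lay in MoMacDC_c2 cells, 7 in steady state and 21 after GM-CSF. A Mt1 UMI was found in 29 of the 37 cells (78.4%), against 16.5% of all cells, and the Mt2 cells were deeper, with a median of 8457 against 4237 UMIs. In the bundle the ratio of Mt2 was 1.82 (0.877 to 4.14), so that a difference between libraries was not detectable at this depth.

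The ferritin chains differed unequally between libraries in granulocytes and neutrophils. Ftl1, the light chain, was 4472 CPM (4404 to 4541) in steady-state granulocytes and 10513 CPM (10384 to 10643) after GM-CSF, a ratio of 2.35 (2.30 to 2.40). In neutrophils it was 1423 CPM (1353 to 1496) and 3377 CPM (3326 to 3429), a ratio of 2.37 (2.25 to 2.50). Fth1, the heavy chain with the ferroxidase centre, was nearly level in the same cells, at 6616 and 6914 CPM in granulocytes, a ratio of 1.05 (1.02 to 1.07), and at 1314 and 1484 CPM in neutrophils, a ratio of 1.13 (1.07 to 1.20). Ftl1 was the 1 member of 5 that passed 2-fold in granulocytes, where 7.29% of 6257 genes were higher and 3.20% lower, and the 1 of 6 in neutrophils, where 3.62% of 6489 genes were higher and 2.48% lower.

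Summed over the Focus bundle, the order was turned. Fth1 was 3176 CPM (47487 UMIs) in steady state and 4788 CPM (129704 UMIs) after GM-CSF, a ratio of 1.51 (1.49 to 1.52), while Ftl1 was 3409 and 3898 CPM, a ratio of 1.14 (1.13 to 1.16). The Fth1 ratio was 1.46 in MoMacDC_c1, 1.42 in MoMacDC_c2 and 1.52 in Progenitor DC, and the Ftl1 ratio 1.26, 1.45 and 1.32. Intervals lay above 1 for Fth1 in 10 of 12 labels and for Ftl1 in 11 of 12, and for both in all 12 clusters. The turned order did not hold throughout the bundle. The Ftl1 ratio was above the Fth1 ratio in clusters 2, 3, 4, 6, 7 and 8 (3.70 against 2.87 in cluster 8 and 1.59 against 1.17 in cluster 6). It was also above in MoMacDC_c5 (1.43 against 1.19) and slightly in MoMacDC_c2 (1.45 against 1.42). The labels whose interval included 1 were T cells for both chains, at 0.970 and 0.959 (Ftl1 at 1.81 without doublets), and Activated DC for Fth1, at 0.937 (0.787 to 1.12).

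As UMIs of the light chain per UMI of the heavy chain, granulocytes went from 0.676 (0.663 to 0.690) to 1.52 (1.49 to 1.55) and neutrophils from 1.08 (1.01 to 1.16) to 2.28 (2.21 to 2.34). MoMacDC_c1 went from 1.18 (1.16 to 1.20) to 1.02 (1.01 to 1.04), MoMacDC_c2 from 0.659 to 0.671, and macrophages from 0.732 (0.661 to 0.811) to 0.704 (0.629 to 0.787). By label, the balance of the chains was thus higher in light chain after GM-CSF in granulocytes and neutrophils. It was lower or level in macrophages and the larger bundle labels, MoMacDC_c5 excepted at 1.31 and 1.57. Activated DC, 8 and 20 cells, stood at 1.36 and 2.28. Within bundle clusters 2, 3, 4, 6, 7 and 8 the balance was also higher in light chain after GM-CSF, as their Ftl1 ratio exceeded their Fth1 ratio. Gm10116, the Ftl1-like entry, was at 63.1 and 148 CPM in granulocytes, and Ftl1 and Gm10116 added together gave the same ratio of 2.35. The Granulocyte label itself differed between libraries, with Ngp, a granule protein, at 23.1 and 417 CPM, Ly6g at 68.8 and 325 CPM, Camp at 9.80 and 65.5 CPM and Cxcr2 at 2389 and 1484 CPM, and the part of this in the Ftl1 ratio was not tested. The granulocytes of both libraries were shallow, with median depths of 1770 and 1229 UMIs.

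**Figure D4:**
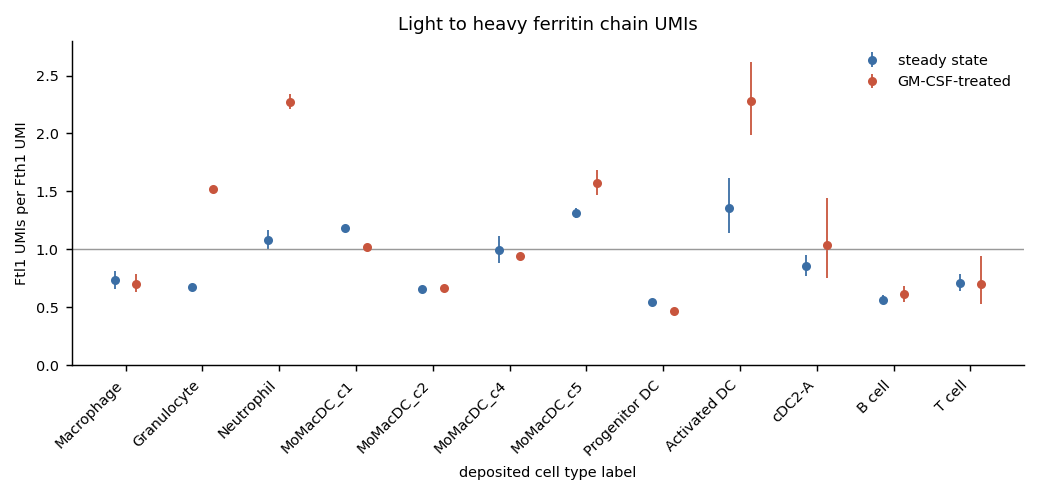
Ftl1 UMIs per Fth1 UMI by deposited cell type label in each library, with 95% counting intervals and a line at 1. Granulocyte and Neutrophil cells go from 0.676 to 1.52 and from 1.08 to 2.28, whereas Macrophage cells stand at 0.732 and 0.704.

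Hmox1 outside macrophages was low and rested in part on single cells. Across the Focus bundle it was 76.3 CPM in steady state and 45.6 CPM after GM-CSF, a ratio of 0.597 (0.551 to 0.648). The clusters did not share this direction. Among the 10 clusters with at least 50 Hmox1 UMIs, the interval lay above 1 in clusters 2, 3 and 8. It lay below 1 in clusters 5 and 9. Cluster 9, at 0.171 (0.112 to 0.254), had 126 Hmox1 UMIs in steady state, of which 108 lay in 1 cell. Its ratio thus rests largely on that cell. The steady-state cells of cluster 8 carry NK cell markers. In MoMacDC_c1 Hmox1 was 76.0 and 68.2 CPM, a ratio of 0.897 (0.803 to 1.0), and in granulocytes 86.3 and 71.7 CPM, a ratio of 0.831 (0.686 to 1.0). In MoMacDC_c2 it was 130 and 34.5 CPM, a ratio of 0.266 (0.222 to 0.318), but 2 steady-state cells held 108 and 62 of its 207 UMIs. Without the first the steady-state level was 62.6 CPM, and without the 2 highest cells of each library the levels were 23.6 and 28.3 CPM, a ratio of 1.20 (0.848 to 1.74), so that the direction turned. The cells of the bundle with most Hmox1, with 108, 62 and 28 UMIs in steady state and 58, 48 and 45 after GM-CSF, held 0 to 4 macrophage marker UMIs and 0 haemoglobin UMIs. The MoMacDC_c2 cell with 62 Hmox1 UMIs was also the one with 51 of Mt1, and it held 249 of Fth1. Among labels other than Macrophage, Granulocyte, MoMacDC_c1 and MoMacDC_c5 overlapped in their Hmox1 intervals in both libraries.

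Outside macrophages, Slc40a1 was highest in granulocytes and next in neutrophils. A UMI was found in 66.9% of steady-state granulocytes and 51.4% after GM-CSF, and in 53.4% and 58.8% of neutrophils, against 6.90% and 0% of T cells. Its level was 724 CPM (697 to 752) and 625 CPM (594 to 658) in granulocytes, a ratio of 0.864 (0.810 to 0.920), and 139 CPM (118 to 163) and 177 CPM (166 to 189) in neutrophils, a ratio of 1.27 (1.07 to 1.52). Over the whole bundle it was 23.1 and 8.34 CPM, a ratio of 0.361 (0.304 to 0.428). That difference lay in the clusters with neutrophil markers: clusters 11, 14 and 15 together held 172 and 106 CPM, a ratio of 0.618 (0.489 to 0.775), while all other clusters held 3.71 and 4.67 CPM, a ratio of 1.26 (0.898 to 1.79). The bundle ratio of Slc40a1 thus turned from lower to slightly higher without those clusters. In Progenitor DC, where it was 51.8 and 8.72 CPM, 19.1% of the steady-state cells and 1.78% of the GM-CSF-treated cells belonged to cluster 14, and neutrophil markers were at 9219 and 2092 CPM.

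Tfrc, which takes up iron bound to transferrin, was sparse. Progenitor DC held the highest level in steady state, and after GM-CSF came next to T cells, whose 41.2 CPM rested on 4 UMIs. It was 66.4 CPM (52.8 to 82.4) in steady state and 32.5 CPM (26.4 to 39.7) after GM-CSF there, a ratio of 0.490 (0.362 to 0.666), with a UMI in 34.2% and 20.9% of cells. In MoMacDC_c2 it was 26.9 and 5.80 CPM, a ratio of 0.215 (0.142 to 0.329). Clusters 12 and 9, which hold most Progenitor DC, had 93.4 and 63.9 CPM in steady state and 26.4 and 40.3 CPM after GM-CSF, ratios of 0.283 (0.165 to 0.494) and 0.631 (0.436 to 0.912). In the whole bundle it was 11.6 and 7.05 CPM, a ratio of 0.606 (0.491 to 0.748), and granulocytes held 3.81 and 3.73 CPM. Every label overlapped the next in the order of Tfrc levels, and 10 of the 12 labels held fewer than 50 Tfrc UMIs over both libraries.

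Slc11a1, the phagosomal metal transporter also called NRAMP1, was lower after GM-CSF in the bundle as a whole and in MoMacDC_c1 and MoMacDC_c2. It was 104 CPM (1549 UMIs) in steady state and 13.9 CPM (376 UMIs) after GM-CSF over the bundle, a ratio of 0.134 (0.119 to 0.150), and a UMI was found in 44.6% and 7.72% of cells. In MoMacDC_c1 it was 103 and 18.5 CPM, a ratio of 0.180 (0.151 to 0.213), and in MoMacDC_c2 49.5 and 6.33 CPM, a ratio of 0.128 (0.0898 to 0.182). MoMacDC_c4, whose steady-state cells carry NK cell markers, went from 2.23 CPM on 1 UMI to 13.8 CPM. MoMacDC_c5 was nearly level, at 214 CPM (195 to 234) and 194 CPM (153 to 243), a ratio of 0.909 (0.704 to 1.16), and its main cluster, cluster 4, held 210 and 200 CPM. Of 7 clusters with at least 50 Slc11a1 UMIs, 5 were at least 2-fold lower. Granulocytes held 179 and 154 CPM, a ratio of 0.860 (0.755 to 0.978), neutrophils 34.8 and 35.0 CPM, and macrophages 249 and 254 CPM on 24 and 12 UMIs. T cells had a UMI in 4.60% and 0% of cells. Slc11a1 and Slc40a1 were the 2 of 7 members at least 2-fold lower in the Focus bundle, where 9.46% of 10860 genes were, and the median log2 ratio of the members was -0.72 against -0.06 over all genes.

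The CD115hi subsets were gated by the study on antibody tags: P-I cells are Ly6C+ classical monocytes, P-III cells are Ly6C- and MHC II+, and P-IV cells also carry CD301b. P-I held 139 and 187 cells, P-III 12 and 126, P-IV 7 and 313, and P-II 8 in either library, so that only P-I was compared between libraries. In P-I, Mt1 was 4.58 CPM (5 UMIs) in steady state and 56.6 CPM (79 UMIs) after GM-CSF, a ratio of 12.4 (5.09 to 39.2), which was 2.74 with 1 CD115 cutoff for both libraries. Slc11a1 was 95.2 and 20.1 CPM, a ratio of 0.211 (0.134 to 0.323), Fth1 3146 and 4630 CPM, a ratio of 1.47 (1.41 to 1.53), and Ftl1 3557 and 4724 CPM, a ratio of 1.33 (1.28 to 1.38). Mt1 was the 1 of 6 members at least 2-fold higher in P-I, where 4.99% of 5774 genes were, and Slc11a1 the 1 lower, where 7.12% were. Hmox1 was 74.1 and 64.5 CPM, a ratio of 0.871 (0.638 to 1.19), and 3.12 with that cutoff.

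In the GM-CSF-treated library, Mt1 was 56.6 CPM (31.0% of cells) in P-I, 105 CPM (41.3%) in P-III and 175 CPM (59.1%) in P-IV, and stood at 104 CPM in the CD115- cells of the bundle. The ratio of P-III to P-I was 1.86 (1.34 to 2.58), that of P-IV to P-III 1.66 (1.30 to 2.15) and that of P-IV to P-I 3.09 (2.42 to 3.99). Mt1 is on the lists of P-IV genes that the study drew from sorted cells and from these same cells and subsets, so its level in P-IV is a description and no independent recurrence. The list from sorted cells took genes at least 2-fold higher in P-IV than in the other populations. The P-IV to P-III ratio here was below 2-fold. Within clusters shared by both subsets, the P-IV to P-III ratio of Mt1 was 1.23 (0.758 to 2.11) in cluster 0, 0.970 (0.531 to 1.73) in cluster 1 and 1.26 (0.740 to 2.29) in clusters 7 and 8, and every one of these intervals included 1. It was 382 against 165 CPM in cluster 3, on 42 and 4 UMIs.

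**Figure D5:**
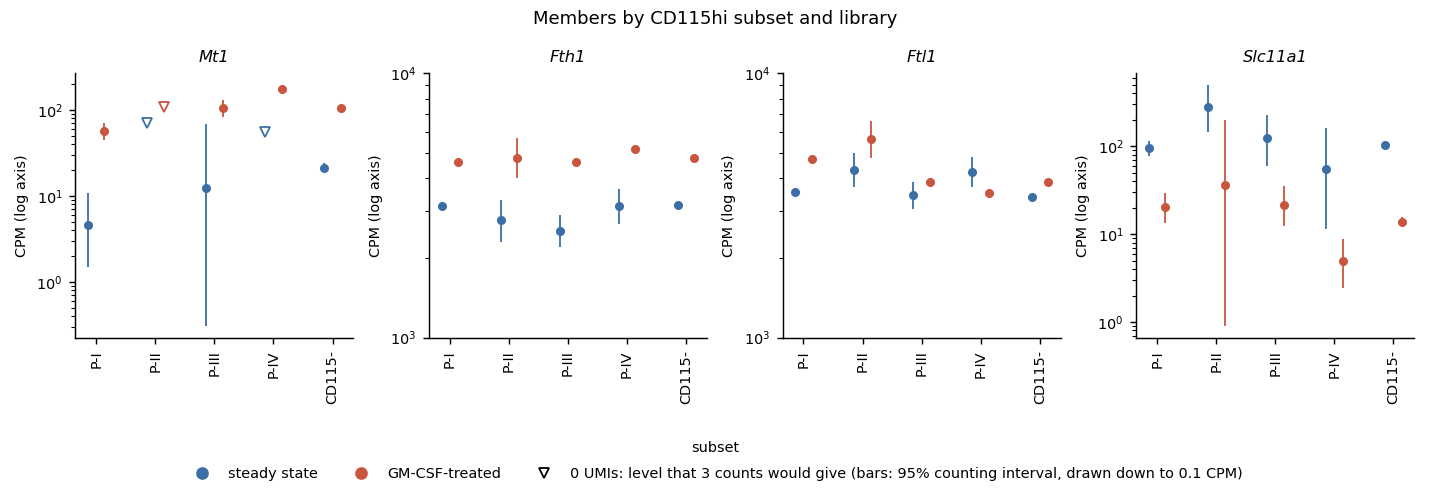
Level (CPM, log axis) of Mt1, Fth1, Ftl1 and Slc11a1 in each CD115hi subset and in the CD115- cells of the Focus bundle, by library, with 95% counting intervals and open triangles for 0 UMIs at the level 3 counts would give. After GM-CSF, Mt1 stands at 56.6, 105 and 175 CPM in P-I, P-III and P-IV, and Ftl1 at 4724, 3871 and 3537 CPM.

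The ferritin chains differed in order along the same subsets. After GM-CSF, Fth1 was 4630 CPM in P-I, 4604 in P-III and 5163 in P-IV, and Ftl1 4724, 3871 and 3537 CPM in the same order, with a P-IV to P-I ratio of 1.12 (1.08 to 1.15) for Fth1 and 0.749 (0.725 to 0.774) for Ftl1. The P-IV to P-III ratio of Fth1 was 1.12 (1.08 to 1.17) over all cells of these subsets. The higher level in P-IV did not hold within shared clusters. In cluster 0, with 167 P-IV and 20 P-III cells, the Fth1 ratio was 0.868 (0.807 to 0.935). It was 1.04 in cluster 1, 0.977 in cluster 3, 1.11 in clusters 5 and 10 and 1.10 in clusters 7 and 8. Each of these intervals outside cluster 0 included 1. Light chain UMIs per heavy chain UMI were 1.02 in P-I, 0.841 in P-III and 0.685 in P-IV, none of the 3 intervals overlapping. Slc11a1 was 20.1, 21.6 and 4.89 CPM on 28, 16 and 11 UMIs, and Hmox1 64.5, 62.2 and 58.3 CPM, the last being 32.6 CPM without 1 cell of 58 UMIs. Within cluster 0, the P-IV to P-III ratio of Hmox1 was 0.417 (0.212 to 0.895), on 44 and 11 UMIs. Its intervals in the other shared clusters included 1. Slc40a1 was 14.3, 5.41 and 1.78 CPM on 20, 4 and 4 UMIs, beside neutrophil markers at 3704, 257 and 230 CPM. Erythroid markers were at 846 CPM in P-IV, and their part in these levels was not tested. None of the 4 members with at least 50 UMIs passed 2-fold from P-I to P-III, where 1.11% of 5233 genes were higher and 2.71% lower, or from P-III to P-IV, where 1.91% of 6216 genes were higher and 1.01% lower. From P-I to P-IV, Mt1 was 1 of 4 higher, where 3.63% of 6803 genes were, and none was lower against 3.53%.

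The deposited cell cycle phase, a call from expression scores that does not by itself show division, was available for the Focus bundle. Tfrc was higher in cells called S or G2/M than in G1 cells, 19.7 against 9.12 CPM in steady state, a ratio of 2.16 (1.57 to 2.95), and 9.11 against 5.60 CPM after GM-CSF, a ratio of 1.63 (1.21 to 2.19). Slc40a1 was lower in cells called S or G2/M, at 6.19 against 28.4 CPM in steady state, a ratio of 0.218 (0.135 to 0.335), and 5.09 against 10.6 CPM after GM-CSF, a ratio of 0.479 (0.348 to 0.651). Clusters 11, 14 and 15, which carry neutrophil markers, held 297 of the 346 steady-state Slc40a1 UMIs and 104 of the 226 after GM-CSF. Their part in the phase ratios of Slc40a1 was not tested. Hmox1 was also lower in cells called S or G2/M, with ratios of 0.628 (0.534 to 0.736) and 0.735 (0.652 to 0.828), and Fth1 too, with 0.766 and 0.869. Mt1 was 18.8 against 20.7 CPM in steady state, a ratio of 0.910 (0.683 to 1.20), and 91.1 against 119 CPM after GM-CSF, a ratio of 0.769 (0.712 to 0.830).

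A further 82 genes in 7 lists of iron, heme, zinc, copper and NRF2 biology were followed, of which 81 were in the table. Of these, 66 had at least 50 UMIs in the Focus bundle, and 3 were at least 2-fold higher and 6 lower, where 8.66% and 9.46% of all genes were. The higher ones were Lcn2, which binds bacterial siderophores, at 193 CPM after GM-CSF and 80.9 CPM in steady state (ratio 2.39, 2.25 to 2.55), the heme transporter Slc48a1 at 72.8 and 32.1 CPM, and the zinc transporter Slc30a4. The lower ones were haptoglobin Hp at 80.2 and 330 CPM (ratio 0.243, 0.231 to 0.256), the ferrireductase Steap4 with 1 and 62 UMIs, the copper pump Atp7a, the cystine transporter Slc7a11, and the stress regulators Nfe2l2 at 65.6 and 239 CPM (ratio 0.275) and Bach1 at 123 and 256 CPM (ratio 0.481). Nfe2l2 and Bach1 are the activator and the heme-sensing repressor of Hmox1 and ferritin genes. The bundle includes clusters 11, 14 and 15, which carry neutrophil markers, and their part in the Lcn2 and Hp ratios was not tested.

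In P-I, 45 list genes had at least 50 UMIs, with Lcn2 higher (4.99% of all genes) and Hp, Nfe2l2, Atp7a, Gclc and Slc7a11 lower (7.12%). In granulocytes, 39 did, with 4 higher and 3 lower, where 7.29% and 3.20% of all genes were. The higher ones were Lrp1, a receptor that takes up heme bound to hemopexin, at 75.4 and 2.99 CPM (ratio 25.2, 13.8 to 51.4), the biliverdin reductase Blvrb at 55.9 and 13.3 CPM (ratio 4.2), Prdx1 and Slc30a7, and the lower ones were Steap4, Hif1a and Slc31a1. In neutrophils, 43 did, with Prdx1 and the zinc exporter Slc30a1 higher, the latter on 49 and 3 UMIs, and none lower, where 3.62% and 2.48% of all genes were. From P-I to P-III after GM-CSF, 34 did, with Slc39a10 higher and Lcn2, Hp and Slc31a1 among those lower, Lcn2 at 13.5 against 147 CPM and Hp at 4.06 against 149 CPM, where 1.11% of all genes were higher and 2.71% lower. From P-III to P-IV, 42 did, with the mitochondrial iron importer Slc25a28 higher at 36.5 against 16.2 CPM and none lower, where 1.91% and 1.01% of all genes were. Neutrophil markers were also far lower in P-III than in P-I, as given above. Their part in the Lcn2 and Hp differences was not tested.

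By list, the largest median log2 ratio was 0.61 for heme uptake, breakdown and export in granulocytes, against 0.11 over all genes, on 5 genes with at least 50 UMIs. The list medians of the Focus bundle ranged from -0.26, for iron sensing and regulators, to 0.17, for heme uptake, breakdown and export, against -0.06 over all genes.

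The genes whose pattern was nearest to each member were found by Pearson's r of log2(CPM + 10) over the 23 label and library groups with at least 20 cells, among 9751 genes with at least 200 UMIs. The groups share 2 libraries, and the values are a description. For Mt1 they were Rnf144b (0.90), Tmem141 (0.87) and Gatm (0.86), for Fth1 Clec4n (0.92), Adgre1 (0.90) and Marcks (0.88), and for Ftl1 Gm10116 (0.93), Rab32 (0.91) and Vamp8 (0.88). For Hmox1 they were Glul (0.95), Slc7a8 (0.94) and Ctsl (0.94), and for Slc40a1 P2ry13 (0.95), Rab20 (0.95) and Agap1 (0.92). For Tfrc they were Il21r (0.82), Dtx1 (0.79) and Pip4k2b (0.76), and for Slc11a1 Lrrc8d (0.90), Arap1 (0.88) and Fcgr4 (0.87). No gene was named for Mt2, which had fewer than 200 UMIs. Between members, r was 0.84 for Fth1 and Ftl1, 0.75 for Fth1 and Hmox1, -0.11 for Mt1 and Tfrc and -0.09 for Mt1 and Slc11a1.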

How the data were processed

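CD11b+ splenocytes were sorted by flow cytometry and run on 10x 3′ chips. Per the labels and the study's methods, the authors made UMI counts per gene and cell with Cell Ranger 3.0.2 on mm10, filtered cells by 200 to 5000 genes and at most 15% mitochondrial UMIs, and integrated and clustered both libraries in Seurat 3.6.0. The counts were deposited unnormalized, and the mitochondrial content of each cell as a percent. Deposited labels gave library, cell type, cluster, phase and subset.

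Summed UMIs per group were turned into CPM (Python 3.11.15, numpy 2.4.6, scipy 1.17.1, pandas 2.3.3) with exact Poisson intervals, ratios with exact binomial intervals and shares of cells with Clopper-Pearson intervals, all at 95%. Gene positions and sequences came from GENCODE M21 on GRCm38. The rule of 2-fold with 50 UMIs was run on Poisson counts simulated for the sums of the whole Focus bundle and of the Granulocyte label. Small groups and UMIs clumped in single cells were not simulated. Doublets were called per library by Scrublet (scanpy 1.11.5), 141 cells (2.92%) in steady state and 186 (2.73%) after GM-CSF, and kept in the main values; 8 barcodes occurred in both libraries. Alternatives changed doublets, depth, weighting, mitochondrial limit, scaling, phase and gates.

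Named were the 8 genes throughout, list genes past 2-fold (up to 4 per list), the 3 genes nearest in pattern, and markers; 1 gene that met the rule is not reported here. The members and lists were chosen with earlier results of these data known. Antibody tag counts, also deposited by the authors, served for 1 alternative gate.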

Additional observations from a re-analysis of the deposited data

Results flagged for a closer look

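Results were listed where a gene's GM-CSF to steady-state ratio lay above 1 in 1 label and below 1 in another, with neither interval reaching 1. The difference between labels was not tested, and there is 1 library per condition.

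Hmox1 was 3.32 (1.5 to 9.12) in MoMacDC_c4 and 0.266 (0.222 to 0.318) in MoMacDC_c2. The first rests on 6 steady-state UMIs in cells that carry NK cell markers, and the second on 207, of which 170 lay in 2 cells. Without the 2 highest cells of each library the MoMacDC_c2 ratio was 1.20 (0.848 to 1.74), so that the opposite directions rest on those cells.

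Slc40a1 was 1.27 (1.07 to 1.52) in Neutrophil cells and lower elsewhere, at 0.864 (0.810 to 0.920) in Granulocyte, 0.599 (0.459 to 0.777) in MoMacDC_c1, 0.319 (0.217 to 0.473) in MoMacDC_c2 and 0.168 (0.102 to 0.270) in Progenitor DC. Neutrophil markers were at 2305 and 1188 CPM in MoMacDC_c1, 8984 and 6749 CPM in MoMacDC_c2 and 9219 and 2092 CPM in Progenitor DC, in steady state and after GM-CSF, and their part in these ratios was not tested. Without doublets the MoMacDC_c1 ratio was 0.976.

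Slc11a1 was 6.19 (1.08 to 247) in MoMacDC_c4, on 1 steady-state UMI, and 0.860 (0.755 to 0.978) in Granulocyte, 0.180 (0.151 to 0.213) in MoMacDC_c1 and 0.128 (0.0898 to 0.182) in MoMacDC_c2.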

How the results depend on the processing

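No paired analysis was possible because each condition has 1 library, and for the same reason no replicate could be left out. Of 1690 values of 202 gene results under the alternatives, 1373 stayed within the main counting interval and 4 turned direction. Hmox1 in MoMacDC_c2 went to a log2 ratio of 0.25 without the 2 cells with most UMIs, a choice made after seeing the data. Slc40a1 in the Focus bundle went to 0.33 without clusters 11, 14 and 15. In macrophages against Progenitor DC after GM-CSF, Mt1 went to -0.75 with macrophages by the cutoffs, on 1 UMI, and Tfrc to 1.43 with cells thinned, where macrophages had 0 UMIs and the value is set by the 0.5 counts added. Of the 52 ratios within a label, 10 to 11 were at least 2-fold higher and 6 to 8 lower, with 5 of 47 higher without MoMacDC_c4. Leaving out that label or those clusters was also chosen after seeing the data. The Mt1 ratio in Neutrophil cells was 0.972 with 0.5 counts added and 1.49 to 2.92 with cells thinned, the mean per cell or without the 1 or 2 highest cells. Within Focus bundle labels, 8 of 29 were higher in all cells and 3 in G1 cells, these 3 being Mt1 in MoMacDC_c1, MoMacDC_c2 and Progenitor DC. Lower were 7 of the 29 in all cells and 6 in G1 cells, and the share over all genes is not given for this set. Macrophages were at least 2-fold higher in 92 to 96 of 111 ratios. They were lower in 1 of 111, in 2 without doublets, with cells thinned, with the mean per cell or without the cell with most UMIs, in 0 with at most 10% mitochondrial UMIs or 1 count added, and in 5 by the cutoffs. Between subsets, 1 of 12 ratios was at least 2-fold higher, 4 with cells thinned, 2 with the mean per cell, in G1 cells or with libraries pooled, and none was lower. In the further lists, 12 ratios were higher and 18 lower, 18 and 23 with a minimum of 20 UMIs, and 33 and 64 with none. Of the 21 nearest genes, 14 were found with log2(CPM + 1) and 3 with clusters as groups. The cause of these moves was not tested. The scaling moved the median of all genes by at most -0.61, in macrophages against Activated DC after GM-CSF. The phase was deposited for Focus bundle cells, so G1 cells alone were not taken for macrophages, granulocytes or neutrophils. Depth limited Mt2 and Tfrc most.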
